A study of Bos taurus with 17 samples.

Results

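Glucose is taken up by cumulus cells, the somatic cells that surround the oocyte, and is split between glycolysis, the pentose phosphate pathway and the hexosamine pathway. The expression of 35 genes that carry out these steps is described here: glucose transporters, the enzymes of glycolysis, lactate and pyruvate dehydrogenases with pyruvate dehydrogenase kinases, enzymes of the pentose phosphate branch, the 5 enzymes of hexosamine synthesis, and 2 enzymes of UDP-glucose metabolism. The genes were chosen by symbol for their place in these pathways, with earlier results of these data known. Every one of the 35 genes had at least 1 feature on the bovine array. They were carried by 39 of its 21475 features, and 33 genes passed the detection filter, which 13865 features passed and for which a signal had to be present in no fewer than 80% of the samples of every stage. PDHA1 and PDHB, the subunits of the pyruvate dehydrogenase E1 enzyme, did not pass it.

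Bovine cumulus cells of 3 stages were hybridised to 17 one-colour Agilent arrays, 1 sample per array. NC1 were 6 samples of compact cumulus around prophase I oocytes of little or no developmental competence, from prepubertal calves aged 3 to 6 months, and were aspirated after slaughter from follicles of 3 to 6 mm. C1 were 6 samples of compact cumulus around prophase I oocytes of adult cows of different ages, collected by the same procedure. C2 were 5 samples of expanded cumulus around metaphase II oocytes, from non-lactating Holstein cows aged 3 to 5 years. These cows received progestagen implants, FSH/LH superovulation and prostaglandin F2α, and follicles over 8 mm were aspirated by ovum pick-up 60 h after the prostaglandin. Maturation, hormone treatment, follicle size, mode of collection and animal source (farm or slaughterhouse) therefore change together between C2 and the other stages and cannot be told apart. The study gives no breed or lactation state for the C1 cows, so C1 and C2 may differ in these and in adult age. Age also separates NC1 from both adult stages.

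Glycolysis turns glucose into pyruvate and lactate, and oocytes, which use glucose poorly, take up pyruvate supplied by the cumulus. The hexosamine pathway turns fructose-6-phosphate into UDP-N-acetylglucosamine, while UDP-glucose is oxidised to UDP-glucuronate. These UDP-sugars are the substrates from which hyaluronan synthases build the hyaluronan of the expanding cumulus matrix.

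Several steps are served by isoforms of similar protein sequence, so the array features of some of these genes are shown first, with both features of SLC2A3. Whether a feature also took up signal from another isoform was not tested. Each feature is a 60-base oligonucleotide. The 30 bases at the 5′ end are printed as the deposited array table gives them, with no capitals since no motif was searched, and no coordinates are given because the array table names no genome build.
GFPT1: ccgtagaataaggagcatctgaaactgggc
GFPT2: ggctaccttgccctatgtttaaaagcatgc
ENO1: caacggtgggattcccacgagagtcaaaga
ENO2: ccccgtgccatgtttcacagctgccagcac
ALDOA: gtgttgtctgtgtacgctaactccaccgtt
ALDOC: tagggcagcagagctgactcatgctttgtg
SLC2A3, brighter feature: aaatggaaaagccttagtgcattgccttgc
SLC2A3, dimmer feature: cgctcagaggatcccaaggctggggttagt

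Levels are log2 signals relative to the median of the array, so that 0 is the level of the median feature, and differences between stages are log2 differences with the standard error of a limma fit of the 3 stages. A gene was called changed when its p-value, adjusted by the Benjamini-Hochberg method over the 13865 tested features, was under 0.01. The p-values measure the spread between these samples. C2 replicates 1 and 5, and C2 replicates 3 and 4, lay closer to each other than other C2 pairs did. The labels do not tie each C2 sample to an animal, and if such a pair shared one, p-values that count 5 C2 samples would be too small. As the samples are bulk RNA, a smaller number of cells of a type and less RNA per cell cannot be told apart.

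Mature and immature cumulus differed in 9 of the 33 tested genes when C2 was compared with C1. SLC2A4, ENO2, GFPT2, GNPNAT1, UGDH and UGP2 rose, while SLC2A3, ALDOC and PFKFB3 fell. Over all features, 28.1% were called in this comparison, 15.3% higher and 12.8% lower, so 9 of 33 is close to the background and is not a result about the set as a whole. Against NC1, 5 genes rose (ENO2, GFPT2, GNPNAT1, UGDH and UGP2) and 2 fell (SLC2A3 and ALDOC), beside 28.1% of all features called, 15.5% higher and 12.6% lower. The split of all called features depended on the scaling and the background correction. Of the called features, 54.4% were higher against C1 and 55.3% against NC1. These shares were 45.7% and 45.5% with 75th percentile scaling and 47.3% and 46.7% with quantile normalization. With normexp background correction they were 49.8% and 67.3%. The median difference over the 33 genes was 0.17 against C1 and 0.11 against NC1, and over all features it was 0.02 and 0.11.

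**Figure D1:**
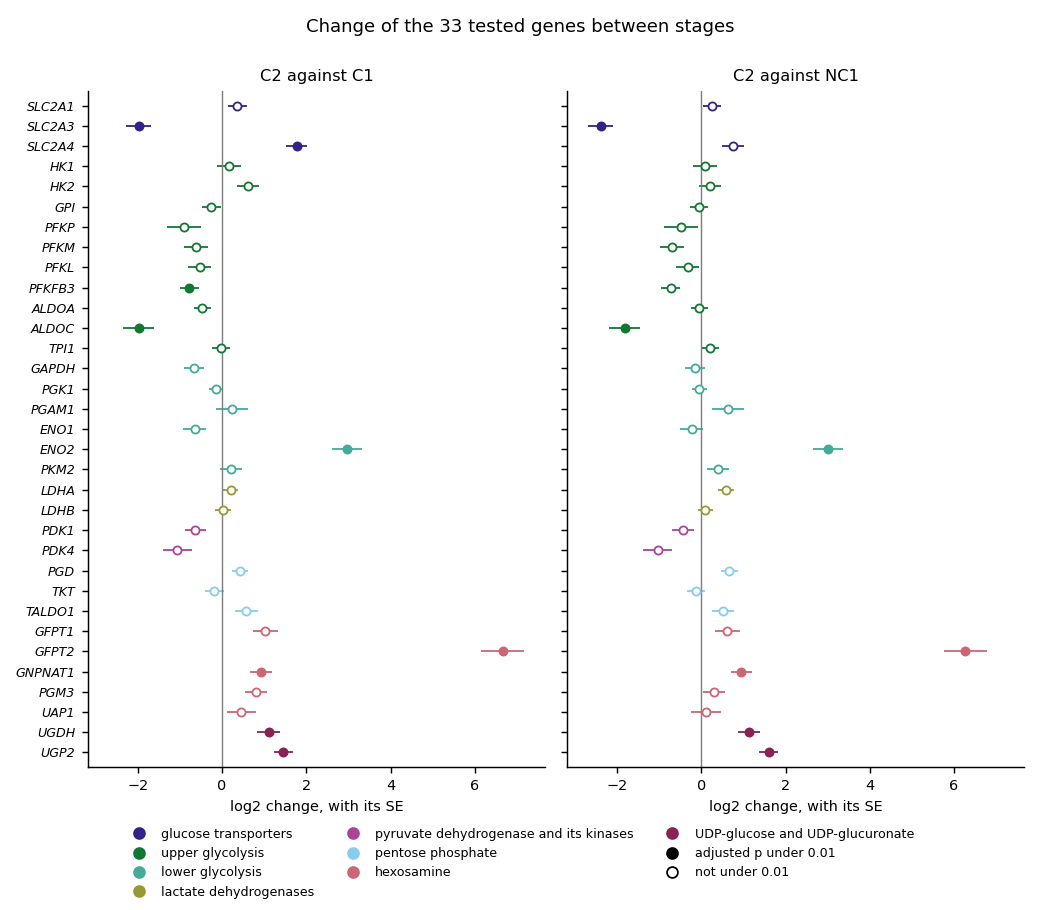
Log2 difference in level between mature C2 cumulus (5 samples) and immature cumulus, C1 or NC1 (6 samples each), for each of the 33 tested genes, grouped by role; bars are standard errors of the limma fit and filled symbols have an adjusted p under 0.01. GFPT2 lies apart at 6.66 and 6.27, while most glycolytic enzymes lie within 1 of 0.

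The differences followed no single direction along the pathway. Against C1, 8 of the 10 genes of upper glycolysis, from the hexokinases to triose phosphate isomerase, had a difference below 0, with a median of -0.50. The median was 0.04 for lower glycolysis, 0.43 for the 3 genes of the pentose phosphate branch and 0.92 for the 5 hexosamine genes, each of which lay above 0. These medians are descriptions, and most of the genes behind them were not called.

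Of the glucose transporters, SLC2A3 fell and SLC2A1 was not called. SLC2A3 encodes GLUT3, a transporter with high affinity for glucose. Its level ranged from 8.99 to 9.97 in NC1 (median 9.38) and from 8.70 to 9.49 in C1 (median 8.96), and the C2 samples were at 8.42, 6.79, 6.43, 6.37 and 7.01. All 5 C2 samples were below every immature sample, and replicate 1 was the nearest to them. The level fell by 1.98 ± 0.30 (SE) against C1, a 3.95-fold lower signal (adjusted p = 4.14e-05), and by 2.39 ± 0.30 against NC1, or 5.25-fold (adjusted p = 5.52e-06). The exact two-sided permutation test gave p = 0.00433 for each contrast, the smallest that 5 against 6 samples allow. The dimmer SLC2A3 feature was also lower in C2, by 2.24 ± 0.57 (adjusted p = 0.00415) and 2.65 ± 0.57 (adjusted p = 0.00116), though C2 replicate 1, at 1.69, lay among the immature samples on it.

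SLC2A1, which encodes the widespread basal transporter GLUT1, was at 6.91 ± 0.27 (SD, n = 6) in NC1, 6.79 ± 0.36 (n = 6) in C1 and 7.16 ± 0.43 (n = 5) in C2. The differences of 0.36 ± 0.22 (adjusted p = 0.202) and 0.25 ± 0.22 (adjusted p = 0.393) were not called. Within an array, the log2 ratio of SLC2A1 to SLC2A3 signal was higher in C2 by 2.35 against C1 and 2.64 against NC1, with no overlap of the groups. The exact permutation p was 0.00433 in both cases, and 0.0146 after adjustment over 27 comparisons of 9 isoform pairs. These pairs were chosen after the values were seen, and 0.0146 was the smallest adjusted p of all 27, so that no ratio was under 0.01 and the ratios are given as descriptions.

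SLC2A4, which encodes the insulin-regulated transporter GLUT4, was a dim signal. It lay between -3.46 and -2.74 in C1 (median -2.94) and between -2.48 and -1.22 in NC1 (median -2.13), and the C2 samples were at -1.55, -0.62, -1.21, -1.05 and -1.78. Every C2 sample was above every C1 sample, while C2 and NC1 overlapped. The rise against C1 was 1.77 ± 0.26, or 3.41-fold (adjusted p = 2.36e-05), but only 0.72 with normexp background correction, where it was still called (adjusted p = 0.00713). The difference of 0.76 ± 0.26 from NC1 was not called (adjusted p = 0.0244).

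**Figure D2:**
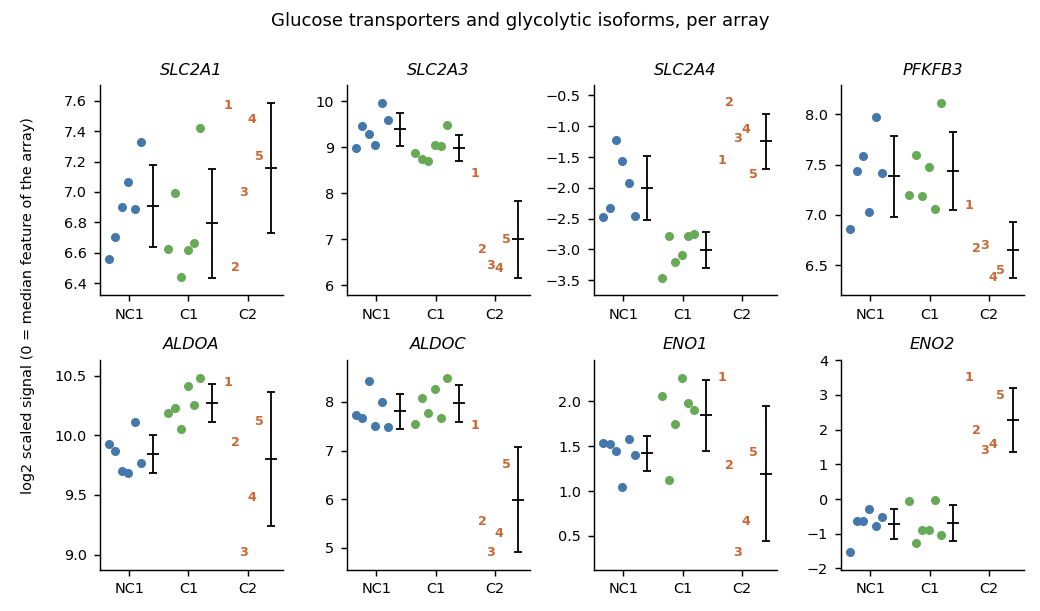
Level (log2 signal relative to the array median) of 8 genes of glucose uptake and glycolysis on each array of NC1, C1 and C2; immature samples are dots, C2 samples are drawn as their replicate numbers, and bars are the mean ± SD. SLC2A3 and ALDOC are lower in C2, where replicate 1 lies highest, and ENO2 is higher in all 5 C2 samples.

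Neither hexokinase was called in mature cumulus. HK1 and HK2, the hexokinases that phosphorylate glucose, differed from C1 by 0.17 ± 0.29 (adjusted p = 0.673) and 0.62 ± 0.25 (adjusted p = 0.0592). HK1 in C2 was spread from 7.00 to 8.76, wider than in either immature stage. GPI, which turns glucose-6-phosphate into fructose-6-phosphate, was at 8.18 ± 0.35 (SD, n = 6) in C1 and 7.93 ± 0.44 (n = 5) in C2, a difference that was not called (adjusted p = 0.375).

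The phosphofructokinases catalyse the committed step of glycolysis. Their differences from C1 were -0.90 ± 0.40 for PFKP (adjusted p = 0.0775), -0.61 ± 0.28 for PFKM (adjusted p = 0.0864) and -0.53 ± 0.27 for PFKL (adjusted p = 0.123). On PFKP the C2 samples were at 7.86, 6.85, 4.66, 5.30 and 6.85, against 6.75 to 7.50 in C1, so that replicate 1 lay above and replicates 3 and 4 far below the C1 samples. None of the 3 genes was called in either contrast.

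PFKFB3 makes fructose-2,6-bisphosphate, the main allosteric activator of phosphofructokinase. It ranged from 6.85 to 7.98 in NC1 (median 7.43) and from 7.06 to 8.11 in C1 (median 7.34), and was at 7.09, 6.67, 6.69, 6.38 and 6.44 in C2. C2 replicate 1 lay within the C1 range and the 4 other C2 samples lay below it. PFKFB3 fell by 0.78 ± 0.23 against C1, or 1.72-fold, with an adjusted p of 0.00971 that lies just under the threshold. By the exact permutation test p was 0.00866 in this contrast. The call was kept in 8 of 30 alternative analyses, in which the adjusted p ran from 0.000705 to 0.0532. The difference of -0.73 ± 0.23 from NC1 was not called (adjusted p = 0.0149).

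Of the aldolases, which split fructose-1,6-bisphosphate, ALDOC was called and ALDOA was not. ALDOC, the brain-type enzyme, ranged from 7.47 to 8.44 in NC1 (median 7.70) and from 7.54 to 8.50 in C1 (median 7.92), and the C2 samples were at 7.51, 5.54, 4.91, 5.29 and 6.71. C2 replicate 1 lay at the lower edge of the immature samples and the other C2 samples lay clearly below them. ALDOC fell by 1.98 ± 0.37 against C1, or 3.94-fold (adjusted p = 0.000304), and by 1.81 ± 0.37 against NC1, or 3.51-fold (adjusted p = 0.000694). By the exact permutation test p was 0.00433 against C1 and 0.00866 against NC1. Without C2 replicates 3 and 4 the fall against NC1 was no longer called (adjusted p = 0.0103).

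ALDOA, the muscle-type and widespread aldolase, was at 9.84 ± 0.16 (SD, n = 6), 10.27 ± 0.16 (n = 6) and 9.80 ± 0.56 (n = 5) in NC1, C1 and C2. Its differences of -0.47 ± 0.21 from C1 (adjusted p = 0.081) and -0.04 from NC1 (adjusted p = 0.893) were not called. The log2 ratio of ALDOA to ALDOC was higher in C2 by 1.51 and 1.77, with the groups apart in both contrasts (exact permutation p = 0.00433, adjusted p = 0.0146).

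Among the enzymes of lower glycolysis, ENO2 was the gene that changed. Enolase forms phosphoenolpyruvate, and ENO2 is its neuron-type isoform. Its level was between -1.53 and -0.28 in NC1 (median -0.63) and between -1.26 and -0.02 in C1 (median -0.89), and rose to 3.50, 1.97, 1.39, 1.57 and 2.98 in C2. All C2 samples were above all immature samples. The rise was 2.98 ± 0.36 against C1, or 7.87-fold (adjusted p = 3e-06), and 3.01 ± 0.36 against NC1, or 8.06-fold (adjusted p = 2.83e-06).

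ENO1, the widespread enolase isoform, was at 1.42 ± 0.20 (SD, n = 6), 1.85 ± 0.40 (n = 6) and 1.19 ± 0.75 (n = 5) in NC1, C1 and C2 and was not called (adjusted p = 0.0701 against C1 and 0.546 against NC1). The ENO1 feature was dim beside those of TPI1 and PGK1, whose NC1 means were 9.78 and 9.46. How well it reports the ENO1 transcript was not tested. The log2 ratio of ENO1 to ENO2 differed by -3.63 and -3.24 in C2 from C1 and NC1, and the groups did not overlap (exact permutation p = 0.00433, adjusted p = 0.0146). ENO1 and ENO2 features shared no run longer than 5 bases, and over all isoform pairs compared the longest shared run was between 4 and 8 of 60 bases. The brighter and dimmer SLC2A3 features, of the same gene, also shared no run longer than 5 bases. The runs compare features only, so they do not tell whether a feature also took up the other isoform's transcript, which was not tested.

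The remaining glycolytic enzymes were not called in either contrast. TPI1, which interconverts the triose phosphates, differed from C1 by -0.02 (adjusted p = 0.951), PGK1, which makes ATP from bisphosphoglycerate, by -0.15 ± 0.18 (adjusted p = 0.536), and PGAM1, the phosphoglycerate mutase, by 0.24 ± 0.38 (adjusted p = 0.646). PKM2, the array's name for pyruvate kinase, differed by 0.22 (adjusted p = 0.53). GAPDH, often used as a reference gene, was at 9.23 ± 0.22 (SD, n = 6) in NC1, 9.74 ± 0.13 (n = 6) in C1 and 9.88, 9.38, 8.08, 8.81 and 9.25 in C2. Its difference of -0.66 ± 0.24 from C1 was not called (adjusted p = 0.0339). A second GAPDH feature differed by -0.97 (adjusted p = 0.038). GAPDH-like loci are represented by 2 further features on the array, with differences from C1 of -0.38 (adjusted p = 0.177) and -1.03 (adjusted p = 0.0454). Whether the GAPDH feature shares signal with these loci was not tested.

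LDHA and LDHB, the subunits of lactate dehydrogenase, were not called. LDHA ranged from 7.64 to 8.51 in NC1 (median 8.28) and from 8.17 to 8.85 in C1 (median 8.62), and C2 samples were at 9.15, 8.89, 8.45, 8.88 and 8.63. It differed by 0.59 ± 0.18 from NC1, which was not called (adjusted p = 0.0157), and by 0.20 ± 0.18 from C1 (adjusted p = 0.408). LDHB was at 8.84 ± 0.22 (SD, n = 6), 8.91 ± 0.21 (n = 6) and 8.93 ± 0.35 (n = 5) in the 3 stages. The log2 ratio of LDHA to LDHB differed by 0.49 between C2 and NC1 (exact permutation p = 0.026, adjusted p = 0.0701).

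Pyruvate dehydrogenase kinases inactivate the enzyme that carries pyruvate into the citric acid cycle. PDK4, at 1.08 ± 0.55 (SD, n = 6) in NC1 and 1.10 ± 0.40 (n = 6) in C1, was at -0.80, 0.13, -0.23, 1.38 and -0.28 in C2, and its differences of -1.06 ± 0.34 (adjusted p = 0.0179) and -1.04 ± 0.34 (adjusted p = 0.0199) were not called. The 3 PDK1 features did not share a call: the brightest differed from C1 by -0.64 ± 0.25 (adjusted p = 0.0522), another by -0.82 (adjusted p = 0.0125), and the remaining one fell by 0.84 ± 0.23 (adjusted p = 0.00735). PDHA1 was well above background on 3 of 6 NC1, 6 of 6 C1 and 3 of 5 C2 arrays, and PDHB on none.

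In the pentose phosphate branch, which supplies NADPH and ribose, no gene was called. PGD, the phosphogluconate dehydrogenase, ranged from 7.77 to 8.33 in NC1 (median 8.03) and from 8.14 to 8.48 in C1 (median 8.27), and C2 samples were at 9.16, 8.05, 8.43, 8.88 and 9.04. Replicate 2 lay within the NC1 range and the others above it. The differences were 0.67 ± 0.20 from NC1 (adjusted p = 0.0112) and 0.43 ± 0.20 from C1 (adjusted p = 0.0909). TALDO1, transaldolase, differed from C1 by 0.58 ± 0.26 (adjusted p = 0.0867) and TKT, transketolase, by -0.18 (adjusted p = 0.532).

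The hexosamine pathway held the largest difference of the 33 genes. GFPT2 encodes one of the glutamine:fructose-6-phosphate amidotransferases, the enzymes of the first and rate-limiting step. It was at 0.73 to 2.33 in NC1 (median 1.81) and -0.43 to 2.30 in C1 (median 1.42), and at 7.41, 6.28, 8.98, 8.93 and 7.84 in C2. The lowest C2 sample was far above the highest immature sample. GFPT2 rose by 6.66 ± 0.52 against C1, or 101-fold (adjusted p = 1.52e-08), and by 6.27 ± 0.52 against NC1, or 77.3-fold (adjusted p = 3.52e-08). It was called in all 30 alternative analyses of each contrast, with a rise between 5.96 and 7.07 against C1 and between 5.56 and 6.67 against NC1.

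GFPT1, the other amidotransferase, did not pass the threshold. It ranged from -0.0036 to 0.57 in NC1 (median 0.25) and from -0.36 to 0.06 in C1 (median -0.13), while C2 samples were at -0.0023, 0.83, 1.56, 1.99 and -0.03. C2 replicates 1 and 5 lay among the immature samples and replicates 2, 3 and 4 above them. The differences were 1.02 ± 0.30 from C1, which just missed the threshold (adjusted p = 0.0101), and 0.62 ± 0.30 from NC1 (adjusted p = 0.107). The log2 ratio of GFPT2 to GFPT1 was higher in C2 by 5.64 and 5.66 with the groups apart (exact permutation p = 0.00433, adjusted p = 0.0146).

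GNPNAT1, the acetyltransferase of the next step, rose in both contrasts. Its level ran from 2.71 to 3.33 in NC1 (median 2.84) and from 2.62 to 3.45 in C1 (median 2.88), and C2 samples were at 3.47, 3.78, 4.35, 4.75 and 3.09. Replicate 5 overlapped the immature samples. The rise was 0.92 ± 0.26, or 1.89-fold, against C1 (adjusted p = 0.008) and 0.95 ± 0.26, or 1.93-fold, against NC1 (adjusted p = 0.00643). By the exact permutation test p was 0.0173 against C1 and 0.013 against NC1. The call was kept in 12 and 18 of 30 alternatives, and without C2 replicates 3 and 4 the difference from C1 was 0.48 (adjusted p = 0.11).

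PGM3 and UAP1, the mutase and the pyrophosphorylase that complete UDP-N-acetylglucosamine, were not called. PGM3 was at 3.21, 3.43, 4.34, 4.80 and 3.08 in C2, against 2.74 to 3.32 in C1 and 3.18 to 3.67 in NC1, a difference of 0.81 ± 0.26 from C1 (adjusted p = 0.0194). UAP1 was at 5.55, 5.69, 7.44, 7.66 and 5.66 in C2, against 5.64 to 6.33 in C1 and 5.84 to 6.66 in NC1, a difference of 0.46 ± 0.35 from C1 (adjusted p = 0.312). On GFPT1, GNPNAT1, PGM3 and UAP1 alike, C2 replicates 3 and 4 were the highest of the 5 C2 samples. These are the C2 arrays of the second of 2 scan days, so within C2 the scan day and this set of samples cannot be told apart. Within scan days, the difference from C1 on the first and second day was 0.36 and 1.98 for GFPT1, 0.52 and 1.54 for GNPNAT1, 0.21 and 1.67 for PGM3, and -0.38 and 1.68 for UAP1.

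**Figure D3:**
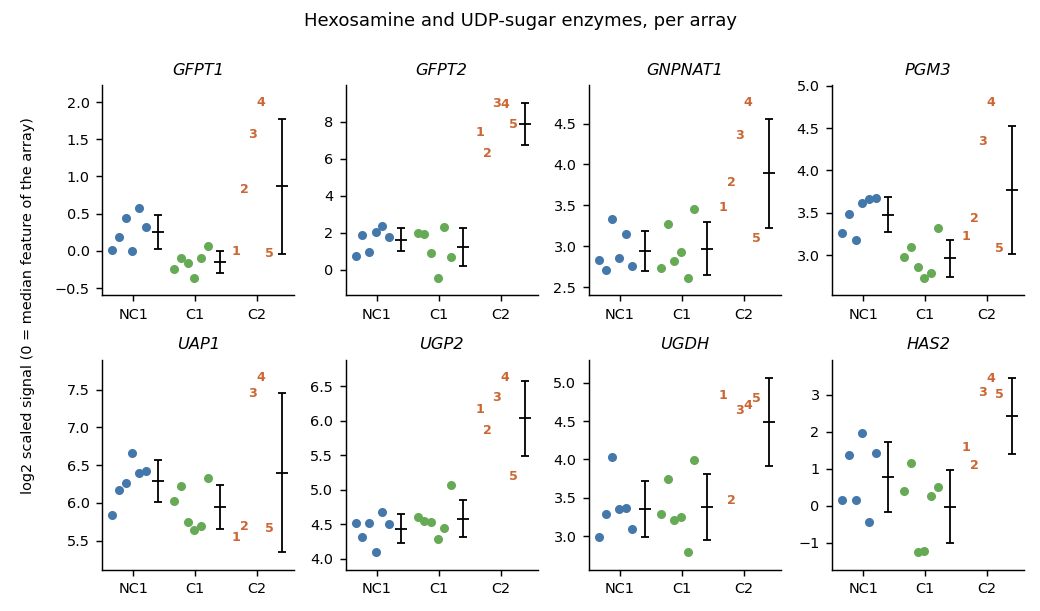
Level (log2 signal relative to the array median) of the 5 hexosamine genes, UGP2, UGDH and the hyaluronan synthase gene HAS2 on each array of NC1, C1 and C2; C2 samples are drawn as their replicate numbers and bars are the mean ± SD. GFPT2 and UGP2 are higher in all C2 samples, while C2 replicates 1 and 5 on GFPT1, and replicates 1, 2 and 5 on PGM3, lie among the immature samples and on UAP1 replicates 1, 2 and 5 lie near or below the lowest of them.

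Both UDP-glucose genes rose. UGP2, which makes UDP-glucose, was at 4.09 to 4.68 in NC1 (median 4.51) and 4.29 to 5.07 in C1 (median 4.54), and at 6.16, 5.86, 6.34, 6.62 and 5.20 in C2. The C2 samples lay above all immature samples, replicate 5 by the smallest margin. UGP2 rose by 1.46 ± 0.22, or 2.75-fold, against C1 (adjusted p = 3.97e-05) and by 1.60 ± 0.22, or 3.03-fold, against NC1 (adjusted p = 1.49e-05), and was called in all 30 alternatives of each contrast.

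UGDH oxidises UDP-glucose to UDP-glucuronate. It ranged from 3.00 to 4.03 in NC1 (median 3.32) and from 2.79 to 3.99 in C1 (median 3.27), and C2 samples were at 4.83, 3.47, 4.64, 4.70 and 4.80. Replicate 2 lay among the immature samples and the other 4 above them. UGDH rose by 1.11 ± 0.27, or 2.16-fold, against C1 (adjusted p = 0.00289) and by 1.13 ± 0.27, or 2.19-fold, against NC1 (adjusted p = 0.00248). By the exact permutation test p was 0.013 against C1 and 0.00866 against NC1. The call was lost without C2 replicates 3 and 4 (adjusted p = 0.023 against C1), and when the close pairs of C2 samples were averaged (adjusted p = 0.0307).

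HAS2, the hyaluronan synthase gene shown beside these enzymes, was at 1.58, 1.10, 3.08, 3.43 and 3.01 in C2, with means of 0.78 ± 0.94 (SD, n = 6) in NC1 and -0.02 ± 0.99 (n = 6) in C1. It rose by 2.46 ± 0.53 against C1 (adjusted p = 0.00123), and the difference of 1.66 ± 0.53 from NC1 was not called (adjusted p = 0.0186). C2 replicates 1 and 2 overlapped the highest immature samples.

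Further genes of the same pathways were read from listed symbols, of which 104 had a feature and 85 a tested one. The lists were chosen with earlier results of these data known, so a share above that of all features is not a result about them. Against C1, 17 rose and 17 fell, which is 40.0% of the 85 beside 28.1% of all features (15.3% higher and 12.8% lower). Against NC1, 18 rose and 17 fell, which is 41.2% beside 28.1%, and 30 genes were called in both contrasts. The single lists hold 4 to 17 tested genes, and their counts are read against the same shares. Of 13 genes of glycolysis and its control, 6 fell and 1 rose against C1. The riser was FBP1, the gluconeogenic fructose bisphosphatase, whose feature the array's gene column names FBP2, with 4.63 ± 0.69 (adjusted p = 3.34e-05). Among those that fell was LDHD, the D-lactate dehydrogenase, by 2.19 (adjusted p = 9.58e-07). C2 samples of FBP1 were widely spread, at 3.65, 6.32, 8.19, 8.71 and 4.03.

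Of 4 further glucose transporters, SLC2A6 rose by 4.00 ± 0.45 against C1 (adjusted p = 1.41e-06) and SLC2A8 fell by 1.11 (adjusted p = 0.00382). These were the tested ones of 9 with a feature. SLC2A12, a further transporter named after its values were seen, was not tested because the filter asks for a signal in C2 as well. It was well above background on all 12 immature arrays and on 0 of 5 C2 arrays. Its mean signal in C2 was 20.9-fold lower than in C1 and 16.2-fold lower than in NC1. These folds are imprecise, because the C2 signal was not well above background. Of 7 genes of lactate and pyruvate transport, 2 rose and 1 fell. The risers were the subunits of the mitochondrial pyruvate carrier, BRP44L (MPC1) by 3.18 ± 0.31 (adjusted p = 3e-07) and MPC2 by 1.04 (adjusted p = 0.00477). EMB, an ancillary protein of monocarboxylate transporters, fell by 4.93 ± 0.31 (adjusted p = 1.34e-09).

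PDK3, a further pyruvate dehydrogenase kinase, rose to 7.20, 7.75, 7.75, 7.83 and 7.43 in C2 from 5.15 to 5.57 in C1, a difference of 2.29 ± 0.17 (adjusted p = 1.19e-08), whereas the PDK1 and PDK4 differences lay below 0. PDP2, a phosphatase that reactivates pyruvate dehydrogenase, fell by 1.46 (adjusted p = 1.2e-05). In the pentose phosphate list 2 of 6 genes rose and 1 fell. RPE, the ribulose phosphate epimerase, rose by 0.87 (adjusted p = 0.00952), DERA, the deoxyribose phosphate aldolase, rose by 0.83 (adjusted p = 0.00544), and TKTL2, a transketolase-like gene, fell by 2.42 (adjusted p = 2.45e-05).

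Of 14 genes of glycogen and polyol metabolism, 3 rose and 2 fell against C1. GYS1, a glycogen synthase, rose by 1.33 (adjusted p = 0.000536) and PYGB, a glycogen phosphorylase, by 1.26 (adjusted p = 0.000112), while AKR1B1, the aldose reductase that reduces glucose to sorbitol, fell by 2.81 ± 0.18 (adjusted p = 1.34e-09). Of 17 hexosamine and UDP-sugar genes outside the set, HAS2 included, 2 rose and 2 fell, with a difference of 0.75 for PGM5, a relative of the phosphoglucomutases (adjusted p = 0.00799), and of -1.88 for RENBP, the renin-binding protein that acts on N-acetylglucosamine (adjusted p = 3.12e-05). Of 17 regulators of the response to oxygen and glucose, 4 rose and 3 fell, with a difference of 2.48 for EPAS1, a hypoxia-inducible transcription factor (adjusted p = 5.39e-06), of -4.78 for the transcription factor MYC (adjusted p = 7.89e-06) and of -2.70 for ARRDC4, an arrestin-family relative of TXNIP (adjusted p = 3.63e-08).

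**Figure D4:**
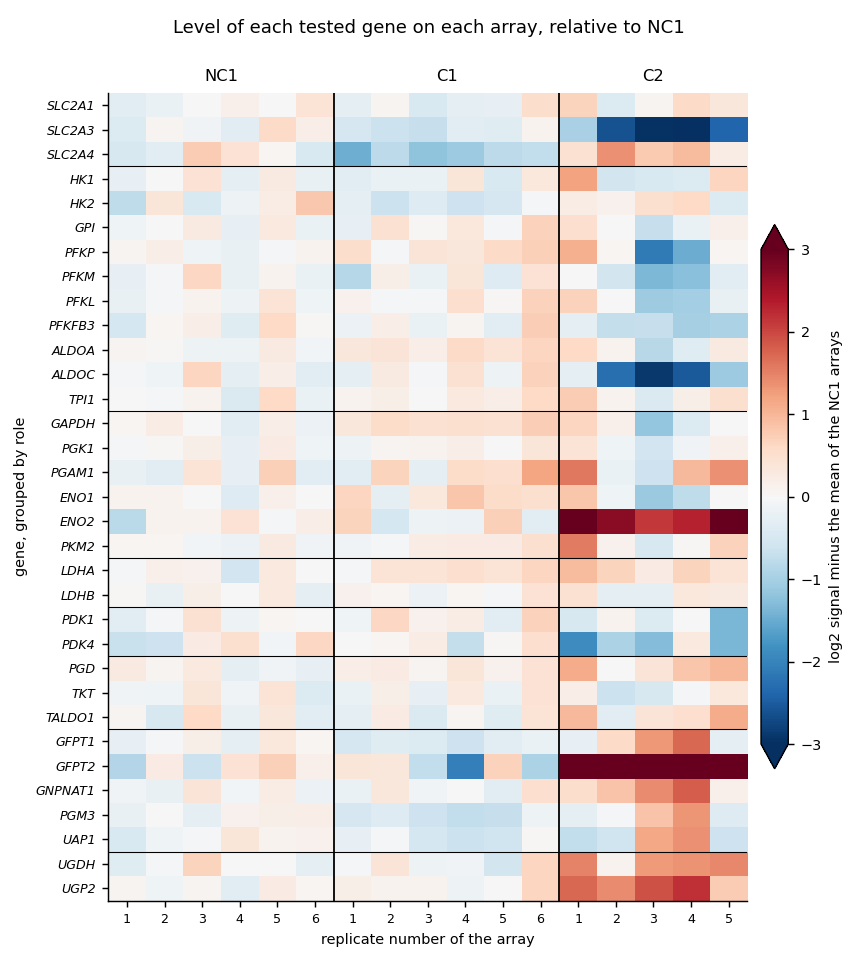
Level of each of the 33 tested genes on each of the 17 arrays, as the log2 difference from the mean of the 6 NC1 arrays, with colours limited at 3 on either side. GFPT2, ENO2 and UGP2 are higher and SLC2A3 lower on all 5 C2 arrays, and PFKP is an example of a gene on which C2 replicates 3 and 4, at 4.66 and 5.30, lie apart from replicate 1, at 7.86.

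Calf and adult immature cumulus differed in none of the 33 genes at the adjusted threshold in limma, where 0.0577% of all features (8) were called. With array weights, an alternative, 1 gene was called, SLC2A4. Its difference between C1 and NC1 was -1.01 ± 0.24, with the groups apart (adjusted p = 0.086, exact permutation p = 0.00216), and 0.00369 was its adjusted p with array weights. Over the 30 alternatives the difference ran from -1.11 to -0.50, and the highest adjusted p was 0.218. The signal was dim, and was well above background on 5 of the 6 NC1 arrays. GAPDH was higher in C1 than in NC1 by 0.51 ± 0.23, with the groups apart (adjusted p = 0.457, exact permutation p = 0.00216). These were the 2 of 33 genes whose NC1 and C1 samples did not overlap, beside 0.887% of all features with C1 higher and 1.21% with C1 lower. In the test over the 3 stages at once, 8 genes were called, beside 28.6% of all features.

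The 9 genes called against C1 kept their direction on each of the 5 slides that held a C2 array, and on both scan days. This is no independent check, since the genes were picked by their call on the same arrays. For SLC2A3, SLC2A4, ALDOC, ENO2, GFPT2 and UGP2 the C2 and C1 samples did not overlap, so their direction was fixed in advance. The share over all called features was not computed. Against NC1, both genes that fell and 4 of the 5 that rose did so on every slide, and GNPNAT1 did on 4 of 5, with -0.06 on the remaining one. The C2 and NC1 samples did not overlap for SLC2A3, ENO2, GFPT2 and UGP2, so there too the direction was fixed. The sizes differed between days for some genes: the GFPT2 rise against C1 was 5.53 on the first day and 8.15 on the second, and the ALDOC fall was -1.32 and -2.94 as log2 differences.

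Between 66.2% and 82.8% of features were well above background on an array, and no spot was saturated. The C2 samples were more spread than the immature ones: the SD of log2 differences was 0.444 between C2 replicates 1 and 5 and 0.512 between replicates 3 and 4, but 1.05 to 1.27 for the other C2 pairs, against 0.431 to 0.756 among pairs within NC1 or C1. Markers of cumulus and granulosa cells were present at all stages, with a summed level of 11.55 to 12.59 in NC1, 11.56 to 12.07 in C1 and 11.09 to 11.60 in C2. Of these 8 genes, 5 were lower in C2 in both contrasts, beside 12.8% of all features against C1 and 12.6% against NC1. Cumulus expansion genes had a summed level of 9.08 to 10.55 in C2 against 1.88 to 5.81 in C1. Markers of other cell types were read in the same way. Of 8 tested leukocyte markers 2 were higher in C2 in each contrast, LYZ and CD14 against C1 and LYZ and PTPRC against NC1. Over all features, 15.3% were higher against C1 and 15.5% against NC1, and the marker counts that follow are read against these shares. The leukocyte markers had a summed level of 3.67 to 5.30 in C2, against 3.11 to 4.32 in the immature stages. No NC1 or C1 array had a CD3E or ITGAM signal well above background. In C2, 4 of the 5 arrays had such a signal for CD3E and 1 for ITGAM. Of 5 tested endothelial markers, KDR was higher in C2 in both contrasts, TEK was lower against NC1, and PECAM1, VWF and CLDN5 were not called. Their summed level was 1.53 to 3.52 in C2 and 0.61 to 1.61 in the immature stages, with CDH5 and EMCN not above background on any array. Theca and stroma markers summed to 8.19 to 9.24 in C2 and 7.41 to 8.26 in the immature stages. Of these 8 genes, 2 were higher against C1 (LUM and COL1A1) and 1 against NC1 (LUM). LUM was 13.8-fold higher against C1 and 12.5-fold higher against NC1. Oocyte markers summed to 1.76 to 2.97 in C2, 2.34 to 5.77 in C1 and 5.90 to 7.15 in NC1. The 1 red blood cell marker tested was not called. The part of these cell types in the differences above was not tested.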

How the data were processed

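The arrays (Agilent bovine one-colour design, 0.35 µg of total RNA, Cy3) were scanned and quantified by the authors with Feature Extraction 10.5.1.1. The deposited scanner files hold the processed signal as a linear intensity, background-subtracted per spot, and the deposited table of normalized values holds log2 values that the authors scaled to each array's median, for 15256 features. That set follows an 80% presence rule met in any 2 of the 3 stages, whereas the study's methods ask for every condition, which was applied here. Samples were grouped by the labels, which name the tissue as ovarian follicles, while the methods state cumulus cells.

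From the intensities, log2 processed signals were averaged over the spots of a feature, leaving out non-uniform and population outlier spots, and the array median was subtracted. A fit of the 3 stages was made with limma 3.58.1 in R 4.3.3, on 13865 features, with Benjamini-Hochberg adjustment and a threshold of 0.01. The number of arrays limits the precision. Where a gene had several features, the one with the highest mean level stands for it. The code was tested on simulated data.

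All 35 genes are named. From 8 wider pathway lists, the genes called in both C2 contrasts were named, at most 3 a list by the size of the change against C1, with HAS2 in any case, and 1 gene that this rule picks is not reported here. The members and lists were chosen with earlier results of these data known. Features were matched by symbol, and 8 were found through their descriptions. Alternatives were another scaling, quantile normalization, normexp background correction, other detection filters, the authors' values, the mean over a gene's features, slide, scan day and replicate blocks, array weights, an analysis of variance without moderation, each replicate left out, close C2 samples averaged and, chosen after seeing the data, C2 replicates 3 and 4 left out. The isoform ratios were also chosen after seeing the data.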

Additional observations from a re-analysis of the deposited data

Results flagged for a closer look

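In 99 groups, each of the 33 genes in each stage, 4 held a sample that stood apart from the rest of its group by Dixon's criterion at the 95% level, and chance gives about 1 in 20. UGDH in C2 replicate 2, at 3.47, lay below the nearest C2 sample at 4.64, a gap of 0.859 of the range of the group. UGDH in NC1 replicate 3, at 4.03, lay above the nearest NC1 sample at 3.36 (0.642 of the range). ENO1 in NC1 replicate 4, at 1.05, lay below the nearest at 1.40 (0.661 of the range). LDHA in C1 replicate 1, at 8.17, lay below the nearest at 8.61 (0.651 of the range).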

How the results depend on the processing

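Over the alternatives, 2970 gene differences were recomputed for the 33 genes. No called difference changed sign, 57 calls were lost and 30 were gained, and 108 differences that were called in neither setting had the opposite sign. Against C1, 6 genes rose and 3 fell, and with one sample left out the counts were 5 to 8 and 2 to 6, the highest number that fell being 6, without C2 replicate 1. Against NC1, 5 rose and 2 fell, and with one sample left out the counts were 4 to 7 and 2 to 3. Only 3 rose against NC1 when the close C2 samples were averaged, and 3 without C2 replicates 3 and 4, while 4 fell with scaling to the 75th percentile. Between C1 and NC1 no gene was called with any one sample left out, and 1 was with array weights. Leaving out one sample gave 6 to 8 genes called among the 3 stages, and for the wider pathway lists 27 to 34 genes against C1 and 28 to 36 against NC1. Over all features, it gave 3358 to 4266 calls against C1, 3363 to 4153 against NC1, 3429 to 4292 among the stages and, for C1 against NC1, 1 to 19, the most being 19 without C2 replicate 2. The 8 calls between C1 and NC1 became 25 with no filter, 2 with a slide block, 239 with array weights and 27 without C2 replicates 3 and 4. The cause of these changes was not tested.

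The replicate numbers did not pair the samples: same-numbered samples correlated between -0.317 and 0.252 in their deviations over 16 pairs, of which 4 were over 0.1. With the replicate block, 5 genes rose and 2 fell against C1, 4 rose and 2 fell against NC1, and 0 features were called between C1 and NC1. Scaling to the 75th percentile moved the median difference over all features from 0.02 to -0.11 against C1 and from 0.11 to -0.04 against NC1. The share of called features that were higher in C2 fell in both contrasts with that scaling and with quantile normalization. With normexp background correction the share fell against C1 and rose against NC1. The precision of dim genes such as SLC2A4, ENO1, ENO2 and the immature levels of GFPT2 is limited by their signal over background.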
